A study of Mus musculus with 95 samples.

Results

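The genes described here are 10 transcripts used as markers of infiltrating blood leukocytes: Cd3d, Cd3e and Cd3g of the T cell receptor complex, Cd8a and Cd8b1 of the CD8 co-receptor, Nkg7, Ms4a4b, Cd52, Ifng and Ccr2. They were given by symbol, and all 10 were matched to an Ensembl identifier among the 55471 features counted. They were read in nucleus accumbens punches of 49 Aldh1l1-EGFP/Rpl10a mice (line JD130Htz on a mixed B6;FVB background), all of which carry a ribosomal protein tagged with EGFP under the control of Aldh1l1, a gene of astrocytes. Each mouse gave an input library (RNA of the whole punch), and 46 of the 49 also gave an IP library (RNA on tagged ribosomes after translating ribosome affinity purification). Dependent mice (18 IP and 18 input libraries) had 5 rounds of CIE, chronic intermittent ethanol, in the CIE-2BC protocol; non-dependent mice (13 IP, 15 input) had 2BC, drinking from 2 bottles, without CIE; naive mice (15 IP, 16 input) had no ethanol. Both sexes are in every group. Ages are not given in the sources used here. Mice are named by their batch letter and number. The tag reaches only cells in which the Aldh1l1 transgene is active, and other RNA can be carried over in an IP. Naive mice came from batches J, K and L, and non-dependent mice from I, J and K. Dependent mice came from these 4 and, as single females, from C and G.

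A T cell recognises peptides through an antigen receptor that cannot reach the cell surface without the CD3 gamma, delta, epsilon and zeta chains, which also pass the signal into the cell. The CD8 alpha and beta chains form the co-receptor of cytotoxic T cells, which holds the class I molecule of the target cell. H2-D1 encodes the heavy chain of such a class I molecule and is raised by interferons, which is why the level of H2-D1 in a mouse is set beside its T cell transcripts. The healthy brain parenchyma holds few T cells and monocytes, and microglia are its resident leukocytes.

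Cd3g, Cd3d and Cd3e lie together on chromosome 9. In GRCm38 with GENCODE M21, Cd3g (ENSMUSG00000002033) spans chr9:44969572-44980431 on the minus strand and Cd3d (ENSMUSG00000032094) spans chr9:44981786-44987339 on the plus strand, so that the pair is read in opposite directions from starts 1355 bases apart. Cd3e (ENSMUSG00000032093, chr9:44998740-45009627, minus strand) starts 29196 bases from Cd3g. Cd8b1 (ENSMUSG00000053044, chr6:71322788-71337494) and Cd8a (ENSMUSG00000053977, chr6:71373427-71379173) lie on the plus strand of chromosome 6, with starts 50639 bases apart. The 250 bases before the start of Cd3g, Cd3d and Cd8a are shown because these genes were read together in the dependent mice and the first pair shares 1 intergenic stretch. They are RefSeq sequences of GRCm38.p6, 5′ to 3′ on the strand of the gene, at chr9:44980432-44980681, chr9:44981536-44981785 and chr6:71373177-71373426. Capitals mark matches to 6 motifs searched on both strands, which are spelled out after the sequences.
Cd3g: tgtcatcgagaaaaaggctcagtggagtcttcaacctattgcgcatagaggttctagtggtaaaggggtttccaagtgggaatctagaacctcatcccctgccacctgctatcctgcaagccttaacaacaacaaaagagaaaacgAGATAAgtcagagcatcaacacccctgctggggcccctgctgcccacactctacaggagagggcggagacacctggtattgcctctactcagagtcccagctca
Cd3d: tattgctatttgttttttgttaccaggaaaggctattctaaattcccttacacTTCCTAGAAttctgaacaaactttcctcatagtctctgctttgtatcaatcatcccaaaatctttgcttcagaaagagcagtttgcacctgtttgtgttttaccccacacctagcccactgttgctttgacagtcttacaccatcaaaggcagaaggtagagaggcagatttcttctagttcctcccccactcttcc
Cd8a: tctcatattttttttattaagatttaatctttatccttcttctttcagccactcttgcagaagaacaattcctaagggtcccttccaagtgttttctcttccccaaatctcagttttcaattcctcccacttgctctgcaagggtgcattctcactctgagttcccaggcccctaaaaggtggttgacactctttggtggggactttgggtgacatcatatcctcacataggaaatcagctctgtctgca
The Cd3g stretch holds 1 match to AGATAA, the motif of GATA factors, which is found in 9.97% of the 32536 mouse promoter stretches of this length. The Cd3d stretch holds 1 match to TTCNNNGAA, the interferon gamma activated site, which is found in 7.04% of them. The Cd8a stretch holds none of the 6 motifs. The other motifs searched were TGTGGT of RUNX factors, found in 13.96% of the stretches, and ACAGGAA of ETS factors, found in 7.21%. The TATA box was searched as TATAAA, found in 12.3% of the stretches, and the E-box as CAGCTG, found in 13.1%. A match of this kind is a description of letters and no binding was measured.

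An IP library held 14314236 to 27146790 counts and an input library 12803108 to 23948193, so that 1 read is worth less than 0.1 CPM (CPM, the usual scaling of a count by its library total). A count of 0 allows up to 3 reads, and this limit, like every interval of counting error here, covers counting error alone since reads amplified by PCR carry no molecular identifiers. Astrocyte markers summed to 19209 to 26219 CPM in IP and to 2288 to 3826 CPM in input, so that the ranges of the fractions did not overlap. In such bulk libraries, fewer cells of a type and less RNA per cell cannot be told apart.

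In input, the 5 Cd3 and Cd8 genes together gave 389 reads in the 18 dependent libraries, 38 reads in the 15 non-dependent libraries and 47 reads in the 16 naive libraries. Per library, dependent mice had 0 to 84 reads (median 15), non-dependent mice 0 to 8 (median 1) and naive mice 0 to 10 (median 2). The dependent libraries did not lie on 1 level: 13 of the 18 held 10 reads or more, and the remaining 5 held 0 or 1. Of the 31 input libraries of the other groups, 1 (naive) reached 10 reads. The groups therefore overlapped at the low end, with C17, I15 and K21 at 0 reads and I07 and K18 at 1 read. At least 3 of the 5 genes were read in 9 of 18 dependent, 2 of 15 non-dependent (I12 and I14) and 0 of 16 naive input libraries. Scaled to library size, the summed level was 1.18 ± 1.27 CPM (SD, n = 18) in dependent, 0.154 ± 0.153 CPM (n = 15) in non-dependent and 0.165 ± 0.146 CPM (n = 16) in naive input.

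**Figure D1:**
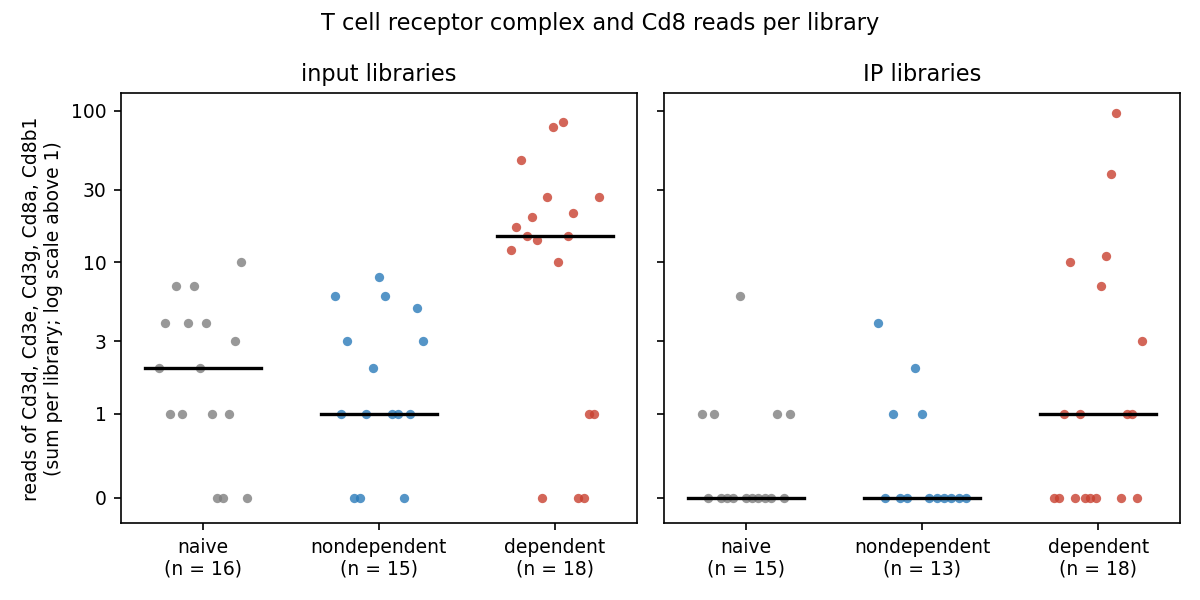
Reads of Cd3d, Cd3e, Cd3g, Cd8a and Cd8b1 summed per library (y axis, reads, log scale above 1) by treatment, in input (left) and IP (right). Each point is 1 library and each black line a median; 13 of 18 dependent input libraries hold 10 reads or more, while most dependent IP libraries hold 0 or 1.

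I02, I05 and I11 stood apart from the other dependent mice, with 84, 78 and 47 Cd3 and Cd8 reads in input and the highest H2-D1 of all mice. Without them, the 15 other dependent input libraries held 180 reads, with a median of 14 and a maximum of 27, and 10 of the 15 held 10 reads or more. The batches were also read 1 by 1. In batch J, the 4 dependent libraries held 14 to 21 reads, the 4 naive ones 0 to 3 and the 3 non-dependent ones 1 to 6. In batch L, the 3 dependent libraries held 10 to 27 reads and the 8 naive ones 0 to 10. In batch I, the 7 dependent libraries held 0 to 84 reads (median 17) and the 9 non-dependent ones 0 to 8. In batch K, the 2 dependent libraries held 0 and 1 reads, the naive ones 0 to 4 and the non-dependent ones 1 to 5, so that the pattern was not seen there. Among dependent mice, input of the 10 females had a median of 18.5 reads and input of the 8 males a median of 5.5. At least 3 of the 5 genes were read in input of 7 females and 2 males. In IP the order was the other way, with a median of 0 reads (maximum 10) in females and 4 (maximum 97) in males. There, at least 3 of the 5 genes were read in 0 females and 2 males. The difference between sexes was not tested.

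Of the CD3 chains, Cd3g, the gamma chain, gave the most reads. In dependent input Cd3g ran from 0 to 32 reads (median 2, 120 reads in all) and was read in 10 of 18 libraries. It ran from 0 to 3 reads in non-dependent input (6 reads in 4 of 15 libraries) and from 0 to 8 in naive input (22 reads in 5 of 16). The 3 highest dependent libraries were I02 with 32, I05 with 25 and J06 with 15 reads, and all naive libraries lay at 8 or under. Cd3e, the epsilon chain, ran from 0 to 20 reads in dependent input (59 reads in 7 libraries), against 0 to 2 in non-dependent (4 reads in 3) and 0 to 4 in naive input (7 reads in 3). Cd3d, the delta chain, ran from 0 to 16 reads in dependent input, with 40 reads in 7 of 18 libraries. Cd3d gave 11 reads in 4 non-dependent libraries, of which 6 were in J11, and 6 reads in 5 naive libraries. Single reads of Cd3d were thus about as widely spread in naive as in dependent input, while 3 reads or more were found in 4 dependent, 1 non-dependent and 0 naive libraries.

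Cd8a, the alpha chain of the co-receptor, separated the groups most sharply by presence. It was read in 9 of 18 dependent input libraries, each time with at least 3 reads (G22 9, I02 3, I05 16, I09 7, I11 19, I13 5, J05 6, J09 3 and L29 12). It gave 1 read in 1 of 15 non-dependent and 1 read in 1 of 16 naive input libraries. The 9 other dependent libraries, among them C17, I07, I15, K18, K21, L25 and L26, held none, as did most controls. Cd8b1, the beta chain, ran from 0 to 26 reads in dependent input (median 4.5, read in 13 of 18), from 0 to 4 in non-dependent (7 of 15) and from 0 to 3 in naive input (6 of 16). Both chains were read together in 8 dependent and in none of the other input libraries.

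Nkg7, a granule protein gene of cytotoxic T cells and natural killer cells, had the highest level per length of the 10 after Cd52, at a mean of 0.882 CPM per kb of exon in dependent input. Its reads in dependent input ran from 0 to 72 (median 4.5, 12 of 18 libraries), with I02 at 72, J05 at 50 and I11 and J09 at 37. In non-dependent input it ran from 0 to 13 (4 of 15 libraries) and in naive input from 0 to 10 (3 of 16), so that 5 dependent libraries lay above all controls and 6 held none. Ms4a4b, a membrane protein gene of T cells, ran from 0 to 26 reads in dependent input (86 reads in 8 of 18 libraries). It gave 7 reads in 2 non-dependent and 4 reads in 2 naive input libraries. I11 (26), J05 (19), I02 (17) and J09 (10) were highest, and the same 4 mice led in Nkg7.

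Cd52, a small surface glycoprotein gene of lymphocytes and other leukocytes that microglia also transcribe, was read in all 95 libraries. In input it lay between 1.80 and 34.8 CPM (median 8.29) in dependent, 0.903 and 12.9 CPM (median 4.11) in non-dependent and 2.56 and 10.8 CPM (median 5.00) in naive mice. In IP it lay between 0.147 and 16.8 CPM (median 2.89), 0.357 and 4.68 CPM (median 1.26) and 0.677 and 3.23 CPM (median 2.53) in the same order. The 3 groups overlapped over most of their range in both fractions, and I02 was highest in both. Cd52 (ENSMUSG00000000682, chr4:134082448-134095082, minus strand) overlaps Crybg2 on the opposite strand, and without a stated use of strand the reads of the overlap cannot be told apart.

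Ifng, the gene of interferon gamma, the cytokine of activated T and natural killer cells, was nearly absent. In input it gave 1 read in 1 dependent library (J05), 1 read in 1 non-dependent library (K15) and 0 reads in 16 naive libraries. In IP it gave 0 reads in 18 dependent libraries, which allows up to 0.00804 CPM over the group, 7 reads in 1 non-dependent library (I04) and 2 reads in 1 naive library (J02). The Ifng reads were thus not in the mice with the most Cd3 and Cd8 reads, apart from the single read in J05. Ccr2, the receptor by which inflammatory monocytes follow Ccl2, did not share the pattern of the T cell genes. In input it gave 8 reads in 2 of 18 dependent libraries (L26 7, J06 1), 9 reads in 2 of 15 non-dependent libraries and 24 reads in 7 of 16 naive libraries. None of the 3 mice with the most Cd3 and Cd8 reads had a Ccr2 read in input. In IP, Ccr2 gave 18 reads in I13, 1 each in I11 and J09, 6 in the non-dependent J03 and none in 15 naive libraries.

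In IP of dependent mice, each of the 3 Cd3 genes, the 2 Cd8 genes, Nkg7 and Ms4a4b was read in fewer libraries than in input. Their mean CPM was lower too, except for Cd3d (IP 0.144 ± 0.346 CPM, input 0.116 ± 0.214 CPM, SD, n = 18). The 5 Cd3 and Cd8 genes gave 170 reads in 18 dependent libraries, 8 in 13 non-dependent and 10 in 15 naive libraries. Of the 170 reads, 97 were in I11 and 38 in J05, and 12 of the 18 libraries held 0 or 1. I11 IP held Cd3d 32, Cd3e 10, Cd8a 13 and Cd8b1 42 reads but no Cd3g read. J05 IP held Cd3d 15, Cd3g 21 and Cd8b1 2 reads but no Cd3e or Cd8a read. I02, the mouse with the most reads in input, held none of the 5 in IP. Cd3e was read in I11 IP alone among 46 IP libraries. Cd3d was read in 4 of 18 dependent IP libraries and had 0 reads in the 28 others, so that its pooled level in dependent IP was at least 13.3-fold higher than in non-dependent and at least 14.9-fold higher than in naive IP, against a floor of 3 reads over each group. That bound rests on I11 and J05, which held 47 of the 57 reads.

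**Figure D2:**
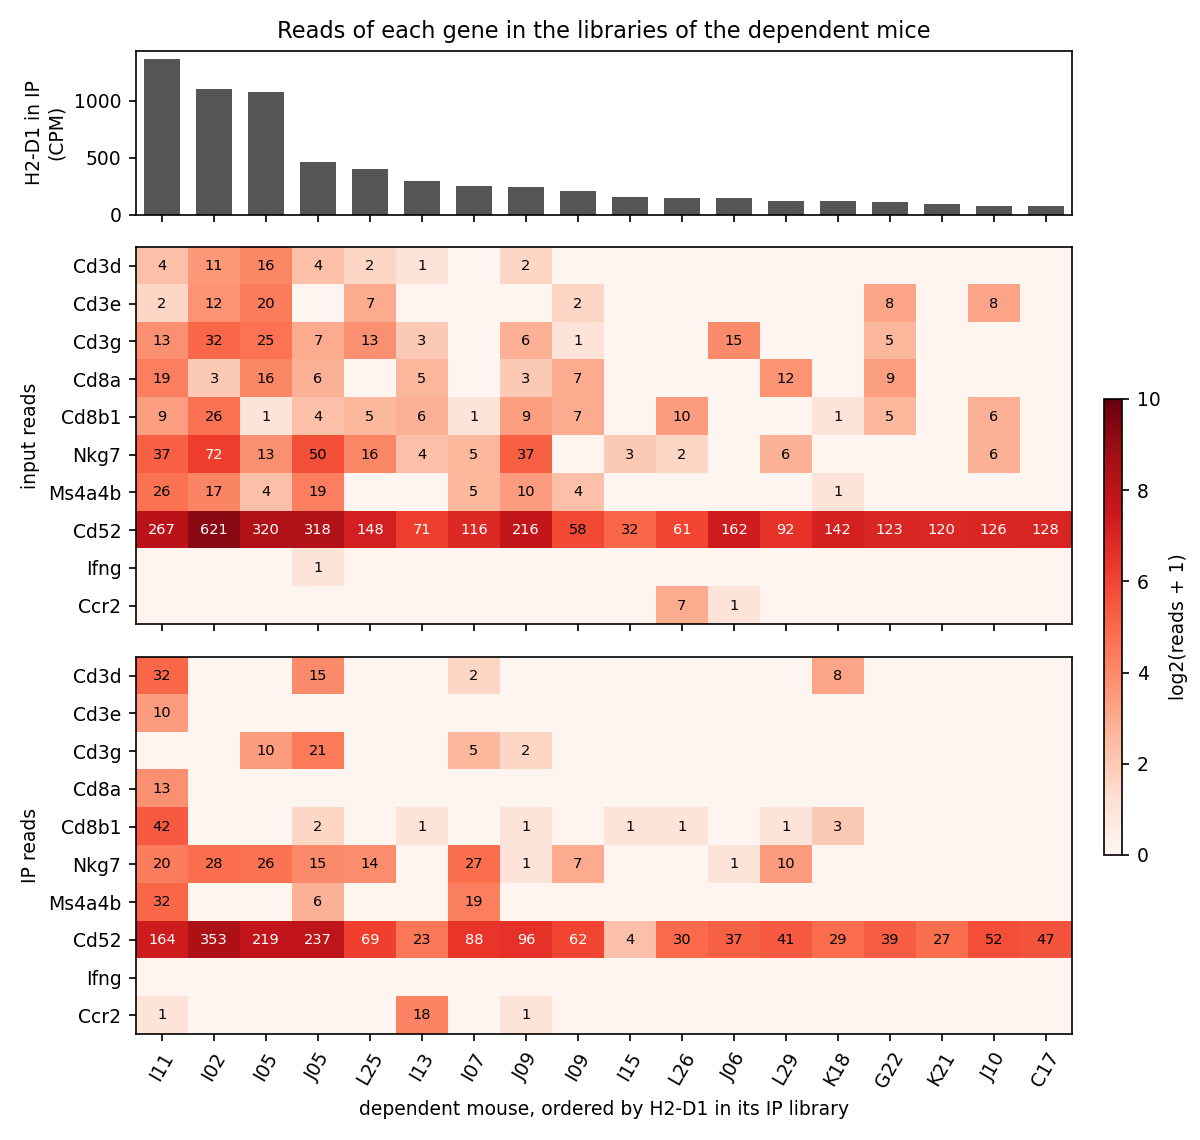
Reads of each of the 10 genes in input (middle) and IP (bottom) of the 18 dependent mice, ordered by H2-D1 in their IP library (top, CPM). Numbers are reads, empty cells are 0 and colour is log2(reads + 1); input reads of Cd3d sit in 7 of the 8 mice with the most H2-D1, while Cd8b1, Cd3e and Cd8a also occur further right.

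After Cd52, Nkg7 was the gene of the 10 read in the most dependent IP libraries. It was read in 10 of 18 dependent IP libraries (0 to 28 reads, median 1), in 3 of 13 non-dependent ones (0 to 9 reads) and in 0 of 15 naive ones. I02 (28), I07 (27), I05 (26) and I11 (20) were highest, and 8 dependent mice had Nkg7 reads in both fractions. Single genes were less often read in both: Cd8b1 in 6, Cd3g and Ms4a4b in 3, Cd3d in 2, and Cd3e and Cd8a in 1 of the 18 dependent mice.

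Few of these genes could be tested across all genes, because the edgeR filter asks for counts of about 10 in a group of libraries. Cd52 and Nkg7 passed it in the fits of treatment. Nkg7 passed only through the dependent libraries, where it is high, and so its test is given as a value and not as support. Against non-dependent mice, Cd52 rose in dependent input (log2 fold change 1.27 ± 0.29 SE, adjusted p = 0.0311, edgeR) and in dependent IP (1.82 ± 0.43 SE, adjusted p = 0.0156). Of all genes tested, 0.310% were called higher in input and 1.10% in IP. The input call was lost without any 1 of I02, I05, I11 or J05 or any 1 of 7 non-dependent mice (highest adjusted p 0.114), and the IP call without J05 or without non-dependent I03 (highest 0.0635). Both calls were lost in batches J and K alone and without batch I. Within batch I the mean of Cd52 in input was 11.4 CPM in dependent and 2.71 CPM in non-dependent mice, in batch J 13.7 and 8.86 CPM, and in batch K 8.54 and 8.73 CPM.

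Against naive mice, Cd52 differed by 0.89 ± 0.34 SE in input (adjusted p = 0.188, edgeR) and by 0.96 ± 0.46 SE in IP (adjusted p = 0.286). Nkg7 was called higher in dependent than in naive IP (adjusted p = 0.0127, edgeR). The call was lost with DESeq2 (adjusted p = 0.104) and limma voom (0.0851), and in batches J and K alone Nkg7 did not pass the filter. It was kept without batch I, without a batch term and with library totals. Because of the filter, these calls too are values and not support. Since naive IP held no Nkg7 read, the size is given from pooled counts, at least 38.9-fold against a floor of 3 reads over the naive group. That bound covers counting error and not the spread between mice or batches. The highest dependent IP libraries, I02, I07, I05 and I11, are of batch I, which holds no naive mouse. In batches J, K and L, dependent IP libraries held at most 15, 0 and 14 Nkg7 reads. The share of all genes called higher against naive mice was 1.42% in input and 2.81% in IP. Nkg7 against non-dependent mice differed by 3.49 ± 0.92 SE in input (adjusted p = 0.0889) and by 2.08 ± 1.31 SE in IP (adjusted p = 0.601). The IP difference ran from 1.43 to 4.10 with 1 mouse left out at a time and was -0.36 without batch I. Non-dependent and naive mice showed no call for Cd52 or Nkg7 in either fraction, with 0.122% of genes called in either direction in input and 0.440% in IP. In that comparison Cd52 differed by -0.38 ± 0.36 SE in input and -0.86 ± 0.48 SE in IP.

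In a fit of input without the filter, planned for the genes that fail it, Cd8a was called higher in dependent than in non-dependent mice (4.47 ± 0.97 SE, adjusted p = 0.00462, edgeR), as was Ms4a4b (4.13 ± 0.93 SE, adjusted p = 0.00841). These fitted sizes rest on 1 to 7 reads in the non-dependent group and depend on the prior count. Of the other genes there, Cd3g differed by 3.23 ± 0.92 SE (adjusted p = 0.0873), Cd3d by 2.13 ± 0.77 SE (0.275), Cd3e by 2.62 ± 1.02 SE (0.342) and Cd8b1 by 2.42 ± 0.84 SE (0.233), and Cd52 had an adjusted p of 0.0547. Of all genes in that fit 0.224% were called higher. Against naive input, Cd8a alone of the 10 was called (3.73 ± 1.04 SE, adjusted p = 0.0342), with 0.831% of all genes called higher, and Cd8b1 differed by 3.05 ± 0.95 SE (adjusted p = 0.0793). Ccr2 differed by -1.62 ± 0.97 SE against naive (adjusted p = 0.629) and by -0.41 against non-dependent input (adjusted p = 1).

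**Figure D3:**
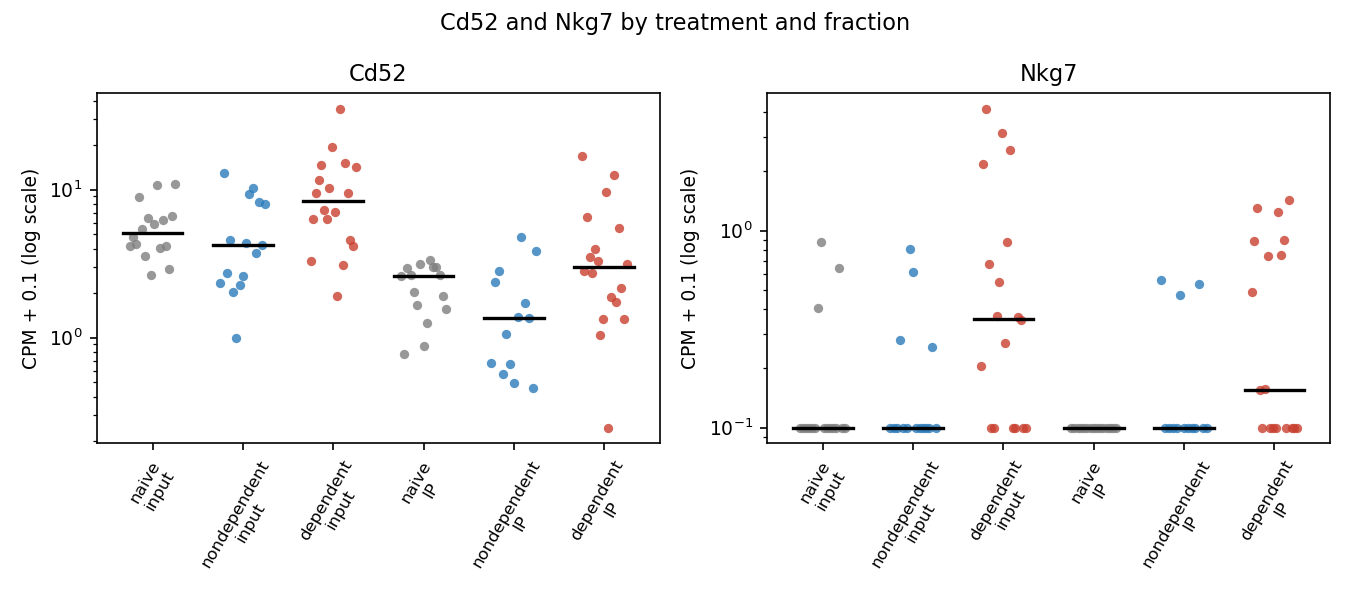
Cd52 (left) and Nkg7 (right) in every library, as CPM + 0.1 on a log axis, by treatment and fraction. Points are libraries and black lines medians; Cd52 ranges overlap between treatments, and all 15 naive IP libraries sit at 0 reads of Nkg7.

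Between the fractions of the same mouse, Cd52 was lower in IP than in input by 1.24 ± 0.11 SE on the log2 scale (46 mice, mouse as a block, adjusted p = 2.1e-16, edgeR). Cd3g was lower by 1.68 ± 0.59 SE (adjusted p = 0.0102) and Nkg7 by 0.82 ± 0.38 SE (adjusted p = 0.0495), while Ms4a4b differed by -0.79 ± 0.57 SE (adjusted p = 0.210). These 4 were the genes of the 10 that passed the filter there. Outside dependent mice, Cd3g reached at most 8 reads in a library and Ms4a4b at most 4. Cd3g, Ms4a4b and Nkg7 passed through the dependent libraries, where they are high. Their tests here, and those of the interaction below, are therefore given as values and not as support. Of all genes, 45.0% were called lower in IP, with a median over all genes of -0.16. Microglia markers had a median of -0.99 with 15 of 16 called lower, and pan-leukocyte genes a median of -1.04 with 10 of 11 tested called lower. H2-D1 was higher in IP, by 0.75 ± 0.06 SE. Without the mouse as a block, 2 of the 4 genes, Cd52 and Cd3g, were called. Whether the dependent difference was unlike in IP and input was tested as an interaction, and none of the 4 genes was called against non-dependent or naive mice, at 0.115% and 0.365% of all genes called.

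Other leukocyte genes were read from fixed lists. Of 23 T cell receptor and co-receptor genes, 12 were tested in input and 0 were called between dependent and non-dependent mice (median log2 fold change 0.05; all genes 0.00). Many of these transcripts were present in every group at levels far above the CD3 chains. Cd4 gave 14959 reads in dependent, 16531 in non-dependent and 16962 in naive input, Bcl11b gave 99118, 82684 and 100487, and Trac, the constant gene of the receptor alpha chain, gave 251, 290 and 182. The smallest p of the list were those of Cd4 (-0.35 ± 0.14 SE, adjusted p = 0.473), Tcf7 (-0.32 ± 0.14 SE, 0.574) and Cd2 (0.90 ± 0.42 SE, 0.683). Cd4 is also transcribed by microglia and Bcl11b by striatal projection neurons.

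Of 19 cytotoxic and natural killer genes, 3 were tested in input and Ccl5, a chemokine of activated T cells that glia also make, was called higher in dependent than in non-dependent mice (3.02 ± 0.70 SE, adjusted p = 0.0284, edgeR). Gzmm and Gzmk differed by -0.32 ± 0.36 SE and -0.15 ± 0.48 SE. In that comparison 0.310% of all genes were called higher, and 0 genes in batches J and K alone or without batch I. Against naive input, 0 of the 3 were called. In IP, Ccl5 was called higher against non-dependent and against naive mice, as 1 of 3 tested. The killing genes Gzmb (18 reads in 2 dependent libraries) and Prf1 (16 reads in 4) and the chemokine gene Xcl1 (10 reads in 3) gave 0 reads in all 31 other input libraries. These 3, like Trac, Bcl11b, Ncr1 and Klrc1, were chosen after their values were seen. The list of 19 as a whole did not follow them. Its summed input level had a median of 2.79 CPM in dependent, 2.46 CPM in non-dependent and 3.05 CPM in naive mice. The median log2 fold change of its 3 tested genes was -0.15 against non-dependent and -0.50 against naive input. Klrc1, a receptor gene of natural killer cells, gave 0 reads in all input libraries, and Ncr1, another, gave 0 reads in dependent and non-dependent input and 11 reads in 1 naive library. Of 15 monocyte genes, 8 were tested and 0 were called in input. Lyz2 differed by 0.75 ± 0.19 SE (adjusted p = 0.0704), Plac8 by 1.72 ± 0.52 SE (0.210) and Fn1 by 0.29 ± 0.17 SE (0.805). In IP, Lyz2, a lysozyme gene that microglia also transcribe, was called (1.07 ± 0.29 SE, adjusted p = 0.0460) as 1 of 9 tested.

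The chemokines that draw T cells were tested as ligands. Of 17 adhesion and homing ligands, 10 were tested in input and 2 were called higher in dependent than in non-dependent mice. These were Cxcl9 (adjusted p = 0.000114) and Cxcl10 (3.74 ± 0.90 SE, adjusted p = 0.0408), both ligands of Cxcr3, while Ccl12 differed by 1.70 ± 0.50 SE (adjusted p = 0.188). Cxcl9 was read in 14 of 18 dependent, 1 of 15 non-dependent and 1 of 16 naive input libraries, with 632, 4 and 1 reads. Like Nkg7, it passed the filter only through the dependent libraries, in input and in IP, so that its tests are given as values and not as support. Of 11 receptors of such ligands, 5 were tested and 0 were called in input. In IP, Cxcl9 and Cxcl16 were called higher and Cx3cl1 lower (-0.37 ± 0.07 SE, adjusted p = 0.00125), of 9 ligands tested. Cxcl9 IP reads occurred in 11 of 18 dependent and in no other IP library. Of 14 genes of interferon gamma signalling, 13 were tested. Against non-dependent mice, 4 of the 13 were called higher in input and 6 in IP, Cxcl9 among them in both. The share of all genes called higher there was 0.310% in input and 1.10% in IP. Against naive mice, 1 of the 13 was called higher in input and 5 in IP, beside 1.42% and 2.81% of all genes. Of the 10 ligands tested in input, 1 was called higher against naive mice. Without batch I, 0 of 20322 genes were called higher against non-dependent input, so that none of these input calls was kept.

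Markers of other cells were summed in the same libraries. Summed microglia markers ran from 603 to 1910 CPM in dependent, 663 to 905 CPM in non-dependent and 743 to 1120 CPM in naive input, and I02, I11 and I05 were the 3 highest dependent libraries at 1910, 1265 and 1188 CPM. C1qa was called higher and P2ry12 lower in dependent than in non-dependent input, of 16 markers tested. Against naive input, 0 of the 16 were called higher and 1 lower. In IP the sums ran from 273 to 1231 CPM in dependent, 296 to 395 CPM in non-dependent and 279 to 381 CPM in naive mice. There, 4 of the 16 (C1qa, C1qb, C1qc and Ctss) were called higher and 0 lower against non-dependent mice. Their median log2 fold change over the 16 was 0.34, in the comparison in which Cd52 was called at 1.82. The share of all genes called higher there was 1.10%, and without batch I it was 1 gene of 19752. Against naive IP, 0 of the 16 were called, with a median of 0.37. Summed red cell genes, which mark blood left in a punch, ran from 70.1 to 2351 CPM in dependent, 304 to 895 CPM in non-dependent and 214 to 1019 CPM in naive input. I02 was the lowest dependent library at 70.1 CPM, I05 lay at 133 CPM and I11 at 291 CPM, while J06 with 2351 and J10 with 1003 CPM were the highest. B cell and plasma cell genes had 0 of 5 tested called and neutrophil genes 0 of 3. The part of microglia or of blood in the counts of the 10 genes was not tested.

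Whether these genes track H2-D1 was read over the 18 dependent mice. H2-D1 ran from 74.8 to 1369 CPM in their IP libraries and from 32.9 to 911 CPM in their input libraries, with I11, I02 and I05 above 1000 CPM in IP and the next mouse, J05, at 461 CPM. Genes with a read in at least 4 of the 18 libraries were correlated on log2(CPM + 0.1), with 100000 permutations and adjustment over all such genes. Input levels against H2-D1 in the IP library of the same mouse compare separate libraries. In that comparison Cd3d had a Spearman rho of 0.84 (permutation p = 5e-05, adjusted p = 0.0355) and a Pearson r of 0.89 (permutation p = 3e-05, adjusted p = 0.0125). Cd3d was the 1 gene of the 8 members tested to pass, and 0.178% of all 27006 genes passed with a positive rho. The 7 mice with Cd3d reads in input were among the 8 with the most H2-D1 in IP, and I07 was the exception within them. Nkg7 (rho 0.74, r 0.74, adjusted permutation p = 0.107 and 0.0822), Cd3g (rho 0.71, r 0.77, adjusted permutation p = 0.129 and 0.0535) and Ms4a4b (rho 0.69, r 0.74, adjusted permutation p = 0.140 and 0.118) did not pass. The Spearman coefficient was 0.48 for Cd8a, 0.42 for Cd8b1, 0.39 for Cd52 and 0.32 for Cd3e, with Pearson r of 0.58, 0.45, 0.52 and 0.41 and adjusted permutation p from 0.211 to 0.434 for rho.

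**Figure D4:**
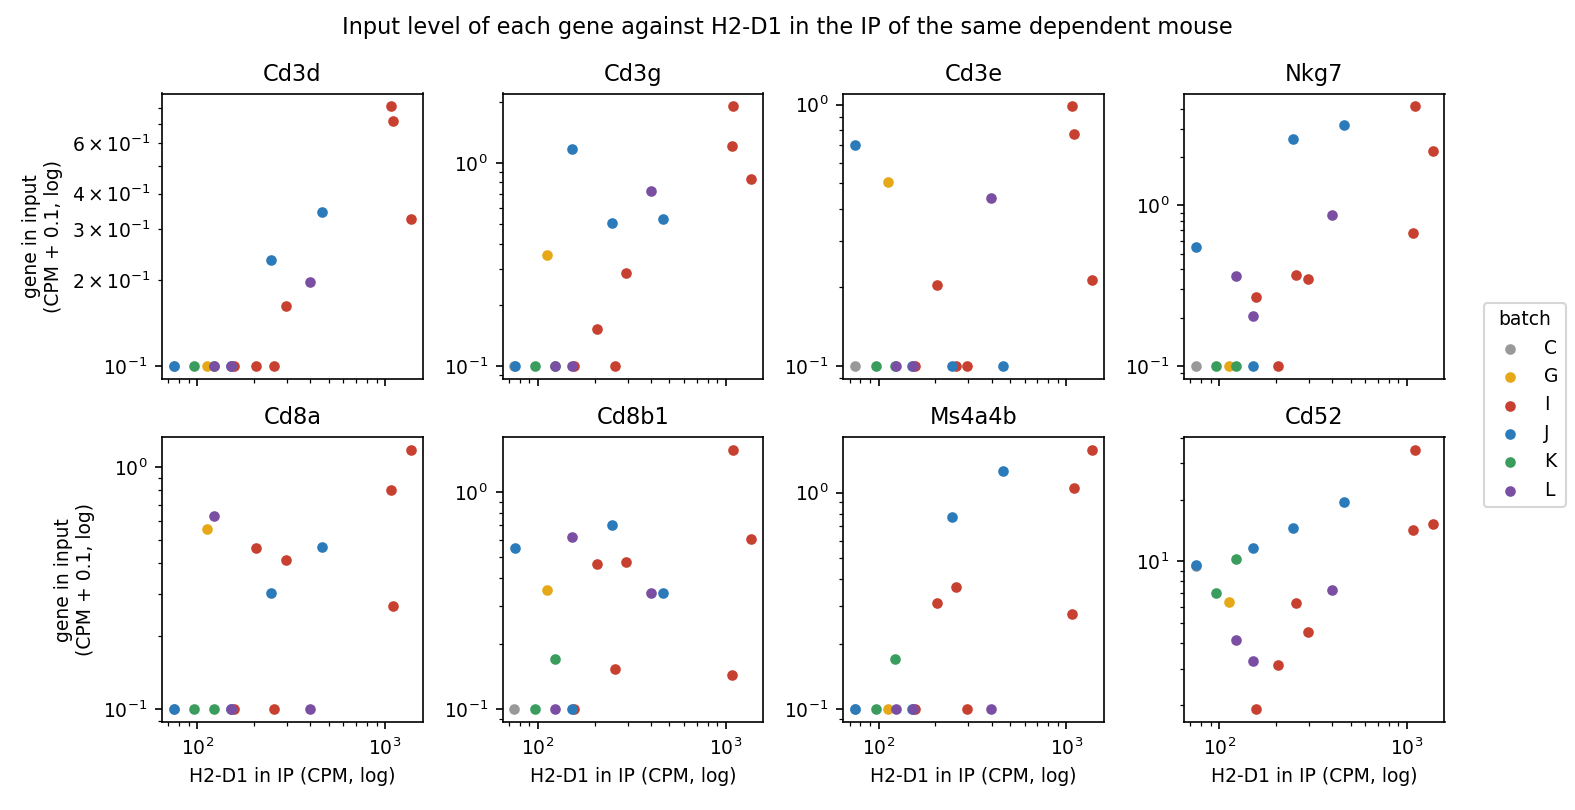
Input level of 8 genes (y axes, CPM + 0.1, log) against H2-D1 in the IP library of the same dependent mouse (x axes, CPM, log), coloured by batch. Each point is 1 of 18 mice; Cd3d leaves the floor only in mice with 247 CPM of H2-D1 or more, while Cd3e and Cd8b1 are scattered.

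Without I11 and I02, the mice farthest from the median of H2-D1, r was 0.88 for Cd3d, 0.68 for Cd3g, 0.60 for Nkg7 and 0.55 for Ms4a4b. It was 0.49 for Cd8a, 0.28 for Cd3e, 0.28 for Cd52 and 0.16 for Cd8b1, and 0 of 26506 genes passed on rho. Because H2-D1 has a gap below its top 3 mice, the 15 others were read alone. There rho was 0.73 for Cd3d, 0.62 for Nkg7, 0.54 for Cd3g and 0.50 for Ms4a4b (adjusted permutation p = 0.510 for each). It was 0.29 for Cd8b1 and 0.24 for Cd8a, and near or under 0 for Cd52 (-0.02) and Cd3e (-0.15). With batch means removed (16 mice), rho was 0.91 for Cd3d, 0.88 for Cd52, 0.88 for Cd3g and 0.83 for Nkg7, with adjusted permutation p from 0.182 to 0.432. The others were lower there, with rho of 0.69 for Ms4a4b, 0.55 for Cd8a, 0.42 for Cd3e and 0.29 for Cd8b1. Within the 7 dependent mice of batch I, rho was 0.93 for Cd52, 0.89 for Nkg7, 0.83 for Cd3g and 0.81 for Cd3d (exact permutation, adjusted p from 0.870 to 1). For Cd8b1, Cd3e, Ms4a4b and Cd8a it was 0.71, 0.67, 0.67 and 0.61. The other batches hold at most 4 dependent mice, too few for a correlation.

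Within the same input library, rho with H2-D1 was 0.75 for Cd3d, 0.67 for Nkg7, 0.60 for Cd3g, 0.55 for Cd8a, 0.52 for Ms4a4b, 0.36 for Cd3e, 0.30 for Cd8b1 and 0.20 for Cd52. The Pearson r were 0.81, 0.68, 0.64, 0.59, 0.62, 0.41, 0.41 and 0.34 in the same order. Cd3d, Nkg7 and Cd3g passed the adjusted permutation test on rho (p = 0.0146, 0.0265 and 0.0467), but so did 17.5% of all genes with a positive rho, so that this comparison gives little that is particular to them. On TMM-scaled CPM, 2 of the 8 passed, beside 3.23% of all genes. With batch means removed, rho was 0.94 for Cd3d, 0.90 for Nkg7, 0.89 for Cd52 and 0.84 for Cd3g. For Ms4a4b, Cd8a, Cd3e and Cd8b1 it was 0.65, 0.60, 0.42 and 0.25. None of the 8 passed there by adjusted permutation p (0.137 for Cd3d), and 0.0301% of all genes did. Within batch I, rho was 0.96 for Cd52, 0.93 for Nkg7, 0.90 for Cd3g and 0.85 for Cd3d. For Cd8b1, Cd3e, Ms4a4b and Cd8a it was 0.75, 0.70, 0.63 and 0.47.

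Within the IP library, 5 of the 10 genes had a read in at least 4 dependent libraries. Nkg7 had a rho of 0.77 (permutation p = 0.00029, adjusted p = 0.0562) and a Pearson r of 0.76 (adjusted permutation p = 0.0352). Cd52 had a rho of 0.61 and an r of 0.63 (permutation p = 0.00794 and 0.00454, adjusted p = 0.11 and 0.157). Cd3g had a rho of 0.43, Cd3d of 0.35 and Cd8b1 of 0.23, with r of 0.40, 0.39 and 0.42. None of the 5 passed on rho, while 0.352% of all 24987 genes passed with a positive rho. Without I11 and I02, r was 0.70 for Nkg7, 0.70 for Cd3g, 0.50 for Cd52 and 0.05 for Cd8b1. The adjusted permutation p of r for Nkg7 was then 0.255, and it was 0.849 with batch means removed, 0.998 in batch I (exact permutation) and 0.674 without the top 3 mice. Cd3e, Cd8a, Ms4a4b and Ccr2 were in fewer than 4 dependent IP libraries and Ifng in none, and they were not correlated.

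H2-D1 and T cell reads did not always go together. G22 held 27 Cd3 and Cd8 reads in input with 78.9 CPM of H2-D1 there, J06 held 15 reads (all Cd3g) with 47.8 CPM and J10 held 14 reads with 32.9 CPM, the lowest H2-D1 of the dependent input libraries. I15 and I07 had 110 and 181 CPM of H2-D1 in input with 0 and 1 reads.

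The genes most like the summed Cd3 and Cd8 level were sought over all libraries of a fraction, as a description. In input (49 libraries, 20699 genes), Cd74 had the highest Spearman rho (0.59), followed by Gbp7 (0.58), H2-Q5 (0.55), Slamf8, Vash2, H2-Eb1, H2-Aa and Ccl8 (0.54 to 0.53). Cd74, the invariant chain of class II molecules, had a mean of 45.8 ± 84.9 CPM (SD, n = 18) in dependent, 1.53 ± 0.53 CPM (n = 15) in non-dependent and 2.63 ± 0.98 CPM (n = 16) in naive input. H2-Aa and H2-Eb1 encode class II chains, and Gbp7 a guanylate-binding protein. In IP (46 libraries, 19450 genes), Wfdc17 led with a rho of 0.54, followed by Nsl1 (0.52), Plet1, Neo1, Irf8, Gm48583, Eef1akmt4 and Gm11517 (0.48 to 0.46). The summed level was 0 in 8 of 18 dependent, 9 of 13 non-dependent and 10 of 15 naive IP libraries, so that many ranks in IP are tied. Wfdc17 had a mean of 0.522 CPM in dependent, 0.347 CPM in non-dependent and 0.984 CPM in naive IP, highest in naive mice. None of the 8 was shared between the fractions, and lists of 8 taken from 19450 and 20699 genes would rarely share one.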

How the data were processed

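RNA of nucleus accumbens punches was sequenced as 95 libraries of 49 mice. The values are raw counts of reads per Ensembl gene, which the authors deposited as 1 table. STAR 2.7.10b, Trimmomatic 0.39, FastQC 0.11.9 and the GRCm38 build are named in the submitters' processing notes. Which counter, annotation and strand setting made the counts is not given in the sources used here. The 10 genes and all lists were chosen with earlier results of these data known, and the genes named are all 10, the leading genes of each list by p, and the 8 most like genes of each fraction.

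Treatments were compared with edgeR 4.0.16 in R 4.3.3 (quasi-likelihood test, TMM scaling, robust fit, filterByExpr with a minimum count of 10 and total of 15) over all genes, with means per treatment and sex plus batch, on the mice of batches I to L. Fractions were compared in paired fits with the mouse as a block. Pairing comes from the mouse named in the labels. Residuals of the 2 libraries of a mouse correlated with a median of 0.548, against 0.365 for other mice of the same batch. In 45 of 46 mice the value was over 0.1 (K15 -0.251), a cut that lies under the median for other mice. Of the 46 IP libraries, 31 correlated best with the input of their own mouse. P-values were adjusted by Benjamini-Hochberg, at a threshold of 0.05. Correlations used log2(CPM + 0.1) and 2-sided permutation with 100000 resamples (Python 3.11.15, scipy 1.17.1), for genes with a count in at least 4 libraries of dependent mice. Genes were screened with 2000 resamples first. The fits and correlations were also run on simulated data. The genes changed in the simulated fits were ones that pass the count filter, and the simulated correlations held no zeros or ties. These runs therefore do not cover genes read in few libraries. DESeq2 1.42.0 and limma voom 3.58.1 were alternatives. Ranges of library totals stand in the results. Each animal is a separate mouse. The batch letter is that of the labels.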

Additional observations from a re-analysis of the deposited data

How the results depend on the processing

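Of 114 fitted log2 fold changes of the 10 genes under other settings, 92 kept direction and side of the threshold, as did 99 of 120 values of rho. The main treatment fits tested 2 of the 10 genes. Cd52 was called in both comparisons of dependent with non-dependent mice, and neither gene in dependent against naive input. Nkg7 was called in dependent against naive IP, which because of the filter is given as a value and not as support. Over all genes, 0.310% were called higher against non-dependent input and 1.10% against non-dependent IP. Against naive mice the shares were 1.42% in input and 2.81% in IP. The number called was 0 for both comparisons with non-dependent mice in batches J and K alone, with limma voom, without a batch term and without batch I. In input these settings called 0 of 19761, 60 of 19691, 24 of 19779 and 0 of 20322 genes higher. In IP they called 0 of 19895, 204 of 19979, 75 of 20071 and 1 of 19752 genes higher. For dependent against naive IP it was 0 in batches J and K, with DESeq2 and with limma voom. There 128 of 19895, 717 of 19947 and 517 of 19979 genes were called higher. Without the count filter all 10 were tested. The number called was then 2 in both comparisons with non-dependent mice and in dependent against naive IP, 1 in dependent against naive input, and 1 against 0 in non-dependent against naive IP. Against non-dependent mice, 86 of 38383 genes in input and 439 of 35858 in IP were called higher there. Against naive mice these were 319 of 38383 and 926 of 35858, and 294 of 35858 for non-dependent against naive IP. The unfiltered IP fit gave H2-D1 a standard error of 0.087 against naive mice, beside 0.33 with the filter, and its calls were not used. Leaving out 1 mouse at a time gave 0 to 1 of the 10 genes called in IP and 0 to 2 in input against non-dependent mice. Over all genes, 167 to 253 were called higher in IP and 38 to 74 in input. Without the replicate block for the mouse, 2 of the 4 genes tested were called between fractions, against 3. All of the 4 but Cd52 passed the filter through the dependent libraries, so that their calls are values and not support. Of all 21743 genes, 9704 were called lower in IP without the block and 9777 with it. Of the 8 genes tested against H2-D1 in input, 3 passed in all mice, 0 with batch means removed, 0 in batch I, 1 without the 2 mice farthest from the median and 0 without the top 3. The shares of all genes that passed with a positive rho were 17.5%, 0.0301%, 0%, 15.4% and 4.88% in the same order. In batch I, 7 mice gave a smallest exact permutation p of 0.000397. A single gene with that p cannot pass adjustment over 22856 genes, so that the 0 in batch I cannot decide whether a relation was lost. Of the 8 input genes tested against H2-D1 in IP, 1 passed in all mice, beside 0.178% of all genes. In each of these 4 settings 0 passed, as was true of all genes. With detection at 3 reads, the median number detected in non-dependent libraries, of the 9 genes without Cd52, was 0 in both fractions. The cause of these changes was not tested, except that smaller sets hold fewer mice.

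Directions turned for Nkg7 against non-dependent IP without batch I (-0.36), and for Cd52 between non-dependent and naive input in batches J and K (0.19) and without batch I (0.089). In the interaction of fraction and treatment they turned for Cd3g without the replicate block (0.91, against naive) and, with limma voom against non-dependent mice, for Cd3g (-0.89) and Ms4a4b (-0.70). The Spearman coefficient turned for Cd3e (-0.083) and Cd52 (-0.33) in input without the top 3 mice and for Cd52 without the 2 farthest (-0.13). Against H2-D1 in IP it turned for Cd3e (-0.15) and Cd52 (-0.021) without the top 3. A few reads per library limit all genes but Cd52.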
